A study of Mus musculus with 16 samples.

Results

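The genes described here are 119 protein-coding mouse genes that nearly vanish when sequenced fragments are counted without regard to strand, although many fragments lie over their exons. They were chosen by 2 limits on deposited count tables from 16 fetal lung libraries. The mean over the 16 libraries of the 2 strand-specific columns, added together, had to be at least 200 fragments, and the mean of the column without strand had to be under 10% of that sum. Of 57180 genes in the tables, 51933 matched the GENCODE M21 annotation, 21793 of these were protein-coding and 10245 of those reached the mean of 200. Tagln, a smooth muscle gene with a mean sum of 1955 fragments of which 0.361% were counted without strand, meets both limits and was left out. The counts chose these genes, so the low share is how they were found and not a result. The choice used means over all libraries and no contrast between groups.

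RNA from lungs of male fetuses at E14.5, in mid-gestation, was sequenced from poly(A)-selected libraries. The 4 groups had 4 libraries each: C57BL/6J (B6) and A/J fetuses, from dams fed BMS493 at 3.75 µg per g per day or corn oil alone, over E9.5 to E14.5. BMS493, as an inverse agonist, lowers the activity of every retinoic acid receptor and with it the transcription of their targets. Which fetuses came from one dam is not labelled, so p-values measure only the spread between these samples.

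Between 20105760 and 31838104 fragments were counted per library, of which 15207539 to 24146224 were assigned to genes without strand, 8382931 to 13434005 in the first strand column and 7819333 to 12471337 in the second. The lung markers Nkx2-1 and Foxf1 lay between 153 and 291 CPM (counts scaled to library size) and between 128 and 243 CPM, while of other organs the liver markers Afp, Alb and Ttr reached 5.93, 4.83 and 0.307 CPM, the thymus markers Ccl25 and Foxn1 2.87 and 0.123 CPM, and the heart markers Myh6, Myl2 and Nppa 18.8, 0.784 and 0.418 CPM in the highest library. Cyp26b1, Dhrs3, Rarb and Lrat, genes of retinoic acid breakdown, storage and reception, were lower with BMS493 in both strains and both strand columns, with log2 fold changes from -1.02 for Rarb in B6 to -6.11 for Lrat in A/J. B6 BMS493 replicate 3 stood apart: over the 119 genes its median absolute log2 difference from the other 3 libraries of its group was 0.277, against 0.0655 to 0.179 in the other 15 libraries. For counts of the 119 genes called at an adjusted p that rest on that group, the value without this library is given too. For counts of called opposite-strand partners it is not given.

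A pair of genes can lie on opposite strands of the same stretch of DNA, so that exons of one cover exons of the other. A library that does not keep the strand gives reads of both orientations from either transcript. A counter that ignores strand finds such a fragment over 2 genes at once and assigns it to neither. A counter that uses strand gives it to one gene in one column and to the other gene in the other column, whichever gene was transcribed. These libraries were unstranded in that sense, with 51.0% to 52.0% of all strand-assigned fragments in the first strand column. Over such an overlap the strand columns hold fragments from either gene, and reads from a gene and from its opposite-strand partner cannot be told apart there.

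3 pairs of genes show the arrangement at the level of bases, and they are shown because their counts return in the strain comparisons or because both genes code for known regulators. In each, the printed 60 bases code for protein in both genes, and the partner's line is the same stretch read from the other strand. Capitals mark the same 10 base pairs at the left end of one line and the right end of the other. Sequences and positions are those of GENCODE M21 on GRCm38. Nr1d1, a nuclear receptor of the circadian clock, and Thra, a thyroid hormone receptor, meet at chr11:98768291-98768350, with Nr1d1 on the minus strand. Masp2, a protease of the lectin pathway of complement, and Tardbp, an RNA-binding protein of splicing, meet at chr4:148612657-148612716, with Masp2 on the plus strand. G430095P16Rik, an uncharacterised gene, lies within Nfix, a transcription factor of the nuclear factor I family, and shares chr8:84726507-84726566 with it on the plus strand.
Nr1d1: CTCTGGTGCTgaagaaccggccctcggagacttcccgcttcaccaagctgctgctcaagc
Thra: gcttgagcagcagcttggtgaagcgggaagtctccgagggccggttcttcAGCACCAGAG
Masp2: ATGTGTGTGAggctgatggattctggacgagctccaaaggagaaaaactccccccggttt
Tardbp: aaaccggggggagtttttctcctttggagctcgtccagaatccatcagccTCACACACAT
G430095P16Rik: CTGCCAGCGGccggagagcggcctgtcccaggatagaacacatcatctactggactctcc
Nfix: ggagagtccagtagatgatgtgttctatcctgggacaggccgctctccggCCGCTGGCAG

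For the median member 1.72% of its fragments were counted without strand, and 13 members had none in any of the 16 libraries. The share was under 1% in 46 members and under 5% in 94. Over all 119 genes, each library held 88681 to 148999 fragments in the strand columns and 2345 to 3701 without strand, a share of 2.20% to 2.78%. The first strand column held 45.4% to 53.8% of a member's fragments, with a median of 48.7%. The part of a whole library that was ambiguous between genes moved with the kind of counting, from 4.26% to 4.68% without strand to between 0.891% and 1.01% in a strand column. Of the other coding genes at this depth, 267 had 10% to 50% of their fragments counted without strand, 1245 had 50% to 90% and 8613 had 90% or more.

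**Figure D1:**
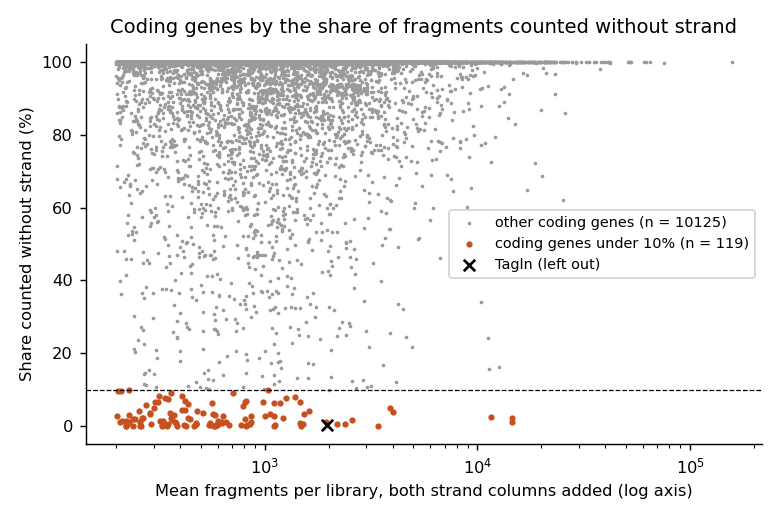
Each point is a protein-coding gene with a mean of at least 200 fragments per library. The horizontal axis gives the mean number of fragments with both strand columns added (log scale), the vertical axis the percentage counted without strand, the dashed line the limit of 10%. The 119 genes under the line (orange) run from about 200 to 14599 fragments, and Tagln (cross) lies among them.

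Over an overlap the strand columns count fragments of either gene, so the numbers that follow are fragments over a gene's exons and not levels of that gene alone. The mean sum ran from 201 fragments for Prg4, which codes for lubricin, to 14599 for Rpl23a, a protein of the large ribosomal subunit, with a median of 477, and 28 genes had at least 1000. Tlcd1, a membrane gene that faces Rpl23a end to end, came next with 14490. They were followed by Phykpl, a lyase of hydroxylysine breakdown (11591), Snx22, a sorting nexin (3990), Serf2 (3862), Ilk, the integrin-linked kinase (3395), and Gpx1, a glutathione peroxidase (2580). The other 8 of the 15 genes with the most fragments were Acat3, an acetoacetyl-CoA thiolase (2373), Fen1, a flap endonuclease of DNA replication (2176), Fam57b (1942), Map3k15 (1606), Shc4, an adaptor of receptor signalling (1533), Rpgrip1, a protein of the photoreceptor cilium (1517), Gm10644 (1479) and Snrpf, a core protein of splicing particles (1479).

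Ilk shows how far the 2 ways of counting can part. With both strand columns added, its 4 B6 control libraries held 3558, 4372, 3518 and 2745 fragments, and its 4 A/J control libraries 3391, 3785, 3705 and 2890. Without strand, all 4 B6 control libraries held 0 and the A/J control libraries 1, 0, 0 and 0. In the annotation 89.7% of the exon bases of Ilk lie under exons of the other strand, 2106 of them under Taf10, a subunit of the general transcription factor TFIID.

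An overlap with an exon of the opposite strand was annotated for 117 of the 119 genes, against 3148 of the 10125 other coding genes at this depth. The exceptions were Gpx1 and Znhit2, for which M21 lists none, and the annotation behind the deposited counts is not given in the sources used here. The overlap need not be long. A median of 25.3% of the exon bases of those 117 genes lay under an opposite exon, against 5.65% in other coding genes with an overlap, and 89 of the 119 had less than 50% covered. 9 genes were covered over at least 90% of their exon bases, and 5 of these were covered completely. They included Pdcd2 inside Tbp, the TATA-binding protein, and Bricd5 inside Mlst8, a subunit of the mTOR complexes.

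Genes that met end to end made up 64 of the 117 pairs (54.7%), against 43.1% of overlapping pairs among the other coding genes. A start-to-start overlap was found in 23 (19.7% against 36.6%). The gene lay within the span of its partner in 22 (18.8% against 1.81%), and the partner within the gene in 8 (6.84% against 18.5%). In 37 of the 117 the shared stretch held no base of the gene's coding sequence, as for Snx22 and Rpgrip1, and in 25 it held bases that code for protein in both genes. Partners were the opposite-strand genes with the most fragments. Of these, 106 were protein-coding and 11 were not, and 7 were themselves among the 119, such as Rpl23a with Tlcd1 and Snrpf with Ccdc38.

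A partner with more fragments than the gene itself was found for 107 of the 119. At the median, the fragments of the hidden gene amounted to 31.7% of its partner's. Partners of the 15 genes with the most fragments included abundant housekeeping genes: Hnrnpab, an RNA-binding protein (21043 fragments, opposite Phykpl), Aldoa, aldolase of glycolysis (9598, opposite Fam57b), Tcp1, a chaperonin subunit (9130, opposite Acat3), Supt16, a histone chaperone of the FACT complex (6811, opposite Rpgrip1), Ppib, a cyclophilin of the endoplasmic reticulum (4903, opposite Snx22), and Pdha1, a subunit of pyruvate dehydrogenase (3706, opposite Map3k15). In the other cases M21 lists no partner with as many fragments. For Foxp3, the regulator of regulatory T cells, the listed partner Ppp1r3f had 50.3 fragments against 264, and for Has3, a hyaluronan synthase, Chtf8 had 26.9 against 1463.

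Exon that no other annotated gene overlaps gives a count free of this ambiguity, and there fragments counted without strand can be set against length. Over such free exon the hidden genes had a median of 4.88 fragments per kb and library, and their partners 242. This is a description, since the rule itself asked for few fragments without strand. Of the 101 genes with at least 200 free bases in both, the partner was denser in 95 and at least 10 times denser in 82. The exceptions were Rpl23a (1026 fragments per kb against 36.5 for Tlcd1), Fen1 (37.7 against 12.9 for Gm10143), Nrm (11.3 against 8.88 for Ppp1r18os), Bmyc (79.4 against 0.592 for A230005M16Rik), Zfp593 (27.4 against 0 for E130218I03Rik) and Pelo, a factor that rescues stalled ribosomes (49.7 against 19.9 for Gm10734). Within a gene, the count without strand over free exon was set against the rest of the strand columns over covered exon. Free exon was thinner by more than 10 times in 80 of the 89 genes where both could be measured. The rule held the count without strand under 10% of the strand columns, so this too is a description and not a result.

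**Figure D2:**
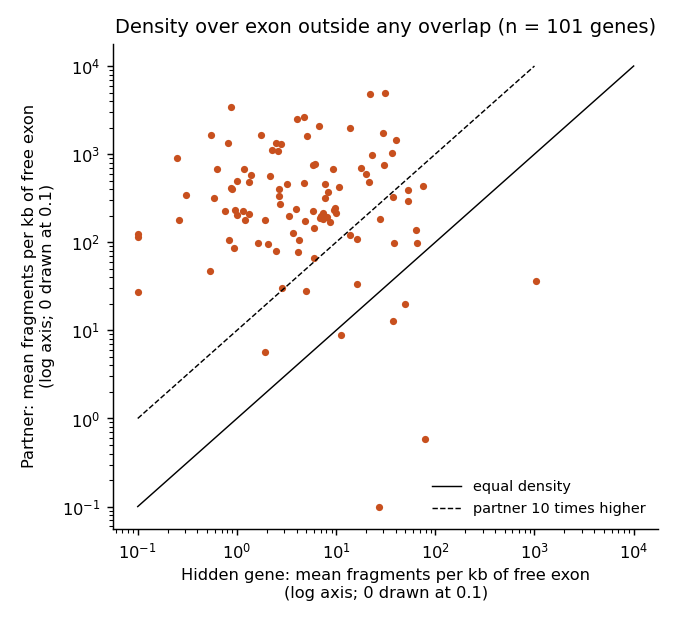
Each of the 101 points is a hidden coding gene with its opposite-strand partner. Both axes give mean fragments per library and per kb of exon that no other gene overlaps, counted without strand, on log scales with 0 drawn at 0.1. 95 points lie above the line of equal density and 82 on or above the dashed line, where the partner is 10 times denser.

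Several of the 119 are best known from other organs or cells, and the following were picked as examples after their values had been seen. The lymphocyte genes Cd247, Cd72 and Sla2 had 1.62, 4.88 and 1.32 fragments per kb of free exon, while their partners Pou2f1, Tesk1 and Rab5if had 96.9, 173 and 208. Foxp3 had 1.91 against 5.66 for Ppp1r3f. Leukocyte markers were present in all libraries, with Csf1r between 34.3 and 49.6 CPM, Adgre1 between 5.27 and 9.08, Cd68 between 3.01 and 8.42 and Ptprc between 1.81 and 6.62. The antithrombin gene Serpinc1, made in liver, had 0.535 per kb against 46.7 for Zbtb37, and the liver receptor gene Nr1i3 had 0 against 115 for Tomm40l. Among genes of neurons, the acetylcholine receptor subunit gene Chrnb2 had 3.69 against 127 for Adar, the ATP receptor gene P2rx3 had 3.99 against 2482 for Ssrp1, and Doc2a, a calcium sensor of synapses, had 4.23 against 107 for Ino80e. The kidney glucose transporter gene Slc5a2 had 0.924 against 85.0 for BC017158, and Oaz3, an antizyme of the testis, had 0.882 against 410 for Mrpl9. In the strand columns the same genes held means from 213 fragments for Serpinc1 to 1121 for Sla2.

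Near-identical sequence elsewhere in the genome affected a minority. Of the 119 genes, 39 shared at least 1 window of 50 bases with another gene, 10 shared at least 10% of their windows and 2 at least 50%. These were Gm10260 (63.3%, most often with the ribosomal protein gene Rps18) and Rpl23a (50.1%, most often with Gm10132). Next came Acat3 (42.6%, most often with its paralog Acat2), Rnf26 (37.5%), Rangrf (32.0%), Snrpf (21.3%) and Gm49383 (20.2%). Values of the 10 genes are uncertain to the extent of their shared windows.

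Just inside the limit of 10% lay Nol3 (9.82%) and Nkiras1 (9.93%), and just outside it Daglb (10.01%) and Irf5 (10.2%). Just inside the limit of 200 fragments lay Prg4 (200.8) and Spag17 (203.5), and just outside it Klhdc9 (196.5) and Plcd4 (197.6).

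In the strand columns most of the 119 genes varied little across the 4 groups, and other genes were not set beside them here. The ratio of the highest to the lowest group mean, in CPM with both strand columns added, had a median of 1.14 and was under 1.5 in 113 genes. It reached 2 only in Gm10260 (79.0) and Gadl1, an amino acid decarboxylase gene (2.51). Gadl1 rested on 1 library: A/J control replicate 3 held 1435 fragments, where the other 3 A/J controls held 301, 320 and 257 and the other groups 142 to 342. The median coefficient of variation within a group was 5.68% for B6 controls and 12.5% for treated B6, and 9.12% for A/J controls and 6.16% for treated A/J.

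BMS493 changed none of the 119 genes past the threshold in the strand columns, in either strain. The question of this comparison is which lung genes respond when retinoic acid signalling is blocked before birth. The test was edgeR's quasi-likelihood test over all genes of a strand column, with Benjamini-Hochberg adjustment and a call at an adjusted p under 0.05. In B6, 0 of 119 were called in the first strand column, where 0.286% of all 17124 genes tested were called, and 0 in the second, where 0.394% of 16997 were called. In A/J the counts were again 0 and 0, against 0.473% and 0.482% of all genes. Called in both columns in the same direction were 0 in B6 (0.185% of all genes), 0 in A/J (0.357%) and 0 for the difference (0.00596%). The difference between the strains gave 0 and 0, against 0.00584% and 0.00588%. At such shares among all genes, less than 1 call would fall on 119 genes, so the counts of 0 are near the background. DESeq2 also called 0 in all of these, and so did the fits without B6 BMS493 replicate 3.

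At an unadjusted p under 0.05, 5 members passed in the first and 13 in the second strand column in B6, which is 4.20% and 10.9% of the 119 against 8.77% and 8.44% of all genes. In A/J 5 and 3 passed, 4.20% and 2.52% against 6.18% and 6.01%, and for the difference between strains 3 and 1, 2.52% and 0.840% against 3.79% and 3.89%. The lowest adjusted p in B6 was 0.238, for 4930404N11Rik in the second strand column (log2 0.56 ± 0.17, SE), and the lowest in A/J was 0.561, for Ttc16 in the first (0.40 ± 0.15). The median absolute log2 fold change of the members was 0.091 and 0.088 in B6 and 0.075 and 0.073 in A/J. Over all genes it was 0.105 and 0.103 in B6 and 0.087 and 0.088 in A/J. In the other classes of coding genes at this depth it was lower than in the members, 0.070 to 0.074 in B6 and 0.057 to 0.065 in A/J. These differences were not tested. The median SE of a member was 0.12, and changes of several times their SE, such as those of 4930404N11Rik and Ttc16, did not pass the adjustment over all genes.

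Hoxb2, a homeobox gene of the retinoic acid-responsive HoxB cluster, had 1176, 1363, 1242 and 849 fragments in B6 controls and 1171, 1091, 676 and 1059 with BMS493. Its log2 fold changes in B6 were -0.17 ± 0.10 and -0.13 ± 0.09 (SE, 4 libraries against 4, adjusted p from edgeR 0.637 and 0.732). In A/J they were -0.02 ± 0.09 and 0.02 ± 0.08 (adjusted p 0.997 and 0.999). The ranges of treated and control libraries overlapped in both strains.

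**Figure D3:**
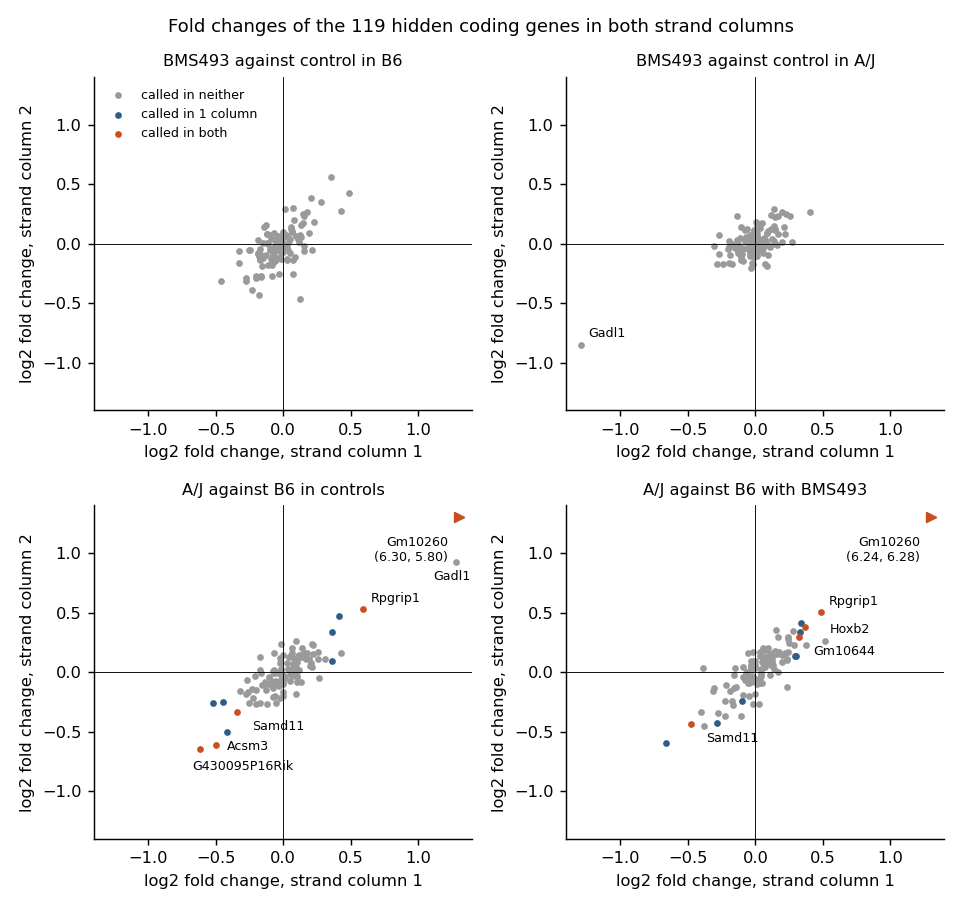
Each point is one of the 119 genes, with its log2 fold change in the first strand column on the horizontal axis and in the second on the vertical axis, in 4 comparisons. Grey points were called in neither column, blue in 1 and orange in both. No point is coloured in either BMS493 comparison, and Gm10260, drawn as a triangle at the edge with its values, lies outside the axes in both strain comparisons.

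Counted without strand, Snx22 was lower with BMS493 in A/J, and Acat3, with very few fragments, in B6. These fragments lie over exon free of the overlap and were enough for a test in 63 of the 119 genes. Each was the only call among the 63 in its strain, where 0.486% and 0.423% of all 17276 genes were called in A/J and in B6. The difference between strains gave 0 calls against 0.00579%. This comparison was added after the values had been seen.

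Snx22 fell in A/J without strand, and its partner Ppib was not called. A/J controls held 204, 213, 197 and 136 fragments of Snx22 and A/J libraries with BMS493 113, 139, 96 and 122. B6 controls held 191, 231, 154 and 179, and B6 libraries with BMS493 112, 145, 124 and 106. In CPM the control and treated A/J libraries did not overlap, while those of B6 did. The log2 fold change was -0.70 ± 0.15 in A/J (SE, 4 libraries against 4, edgeR adjusted p 0.0286) and -0.57 ± 0.15 in B6 (adjusted p 0.122). The difference between these effects, -0.13 ± 0.22, had an adjusted p of 0.999. The A/J call was lost on leaving out A/J control replicate 1, 2 or 3 or A/J BMS493 replicate 1 or 3, 5 of 16 single omissions (adjusted p up to 0.160). With both strand columns added, Snx22 had 4087, 4284, 4570 and 3465 fragments in A/J controls and 4201, 4222, 4271 and 3494 with BMS493, and in each strand column it was not called in A/J (adjusted p 0.974 and 0.999). Ppib differed by 0.02 ± 0.06 in A/J and by -0.02 ± 0.06 in B6, with an adjusted p of 1 and 0.944.

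Acat3 had very few fragments without strand: 13, 20, 8 and 12 for B6 controls, 2, 3, 1 and 3 for treated B6, 10, 18, 8 and 13 for A/J controls and 13, 14, 5 and 8 for treated A/J. The treated B6 libraries lay below all others. Acat3 passed the filter on low counts through the other 3 groups only, so its call in B6 adds little to these counts. The log2 fold change in B6 was -2.44 ± 0.52 (edgeR adjusted p 0.0268), against -0.34 ± 0.41 in A/J (adjusted p 1). The difference between strains, 2.10 ± 0.67, was not called (adjusted p 0.999), and the B6 call was lost when B6 control replicate 1, 2 or 4 or B6 BMS493 replicate 2 or 3 was left out (adjusted p up to 0.129). Without B6 BMS493 replicate 3 the count in B6 was still 1, with Acat3 not called. No adjusted p was obtained from DESeq2 or with only the 8 libraries compared. In the strand columns its adjusted p was 0.929 and 0.933.

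**Figure D4:**
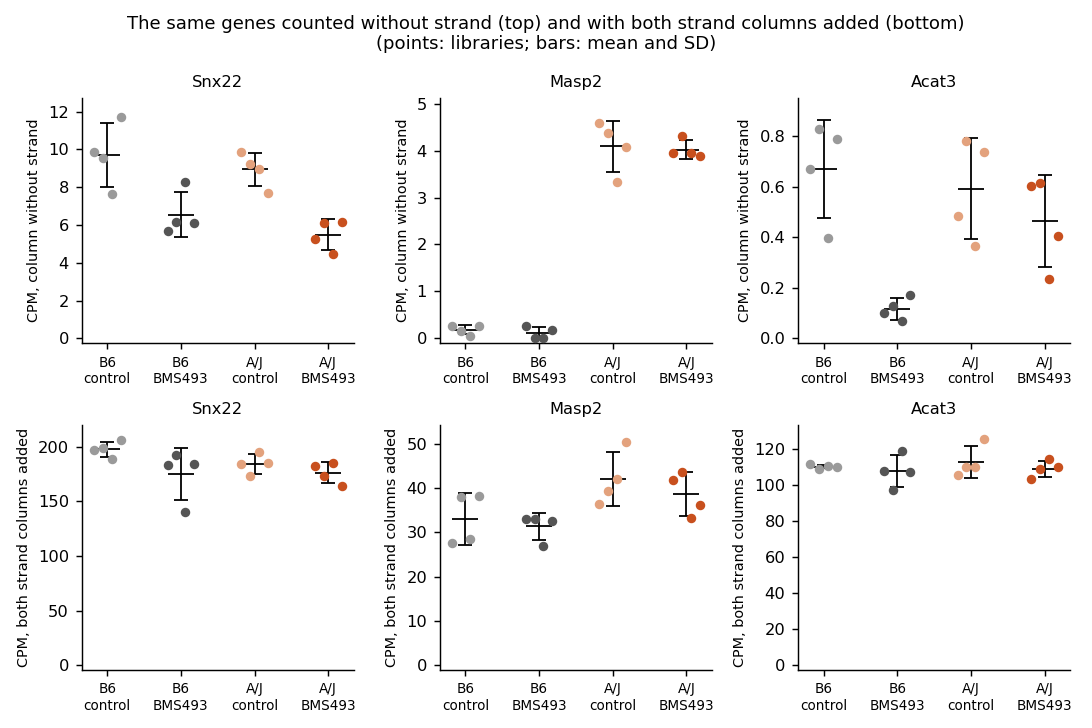
CPM by library (points, 4 per group) with mean and SD (bars) for Snx22, Masp2 and Acat3. The upper row uses the column without strand and the lower row both strand columns added; in the upper row the A/J libraries of Masp2 and the treated B6 libraries of Acat3 lie apart from all others, and treated Snx22 libraries lie low in both strains, with overlap in B6.

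The strains differed in a few of the 119 genes. A/J was compared with B6 among controls, the comparison of genetic backgrounds without treatment, and again among fetuses with BMS493. In controls 9 of 119 were called in the first strand column, 3 higher and 6 lower in A/J (7.56%, against 13.9% of all genes tested, 5.99% higher and 7.88% lower), and 7 in the second, 4 higher and 3 lower (5.88%, against 13.7%, 5.92% higher and 7.77% lower). 5 were called in both columns in the same direction (4.20% against 10.1%). Rpgrip1 and Gm10260 were higher in A/J, and G430095P16Rik, Acsm3 and Samd11 were lower. With BMS493 8 were called in the first column (6 higher, 2 lower, 6.72%, against 16.9% of all genes, 6.69% higher and 10.2% lower) and 9 in the second (6 higher, 3 lower, 7.56%, against 16.6%, 6.59% higher and 10% lower). At an unadjusted p under 0.05, 19 and 13 members passed in controls, where 26.3% and 26.2% of all genes did, and 20 and 19 with BMS493, where 29.2% and 28.7% did. 5 were called in both (4.20% against 12.6%): Rpgrip1, Gm10644, Hoxb2 and Gm10260 were higher in A/J and Samd11 was lower. Rpgrip1, Gm10260 and Samd11 were called in both columns in both comparisons, and Gm10260 was among the 119 only through its A/J libraries, so its call adds nothing to either count of 5. Without B6 BMS493 replicate 3, the count with BMS493 was 13 in the first column and 9 in the second, and the 5 genes called in both columns were still called in both. In the second column, 4 were called in controls without B6 control replicate 3, and with BMS493 5 without A/J BMS493 replicate 1 and 4 with only the 8 libraries compared. Of the markers of lung epithelium, some were lower in A/J and others were not. Sftpc was 232 to 319 CPM in B6 controls and 50.5 to 94.6 CPM in A/J controls. With BMS493 it was 165 to 806 CPM in B6 and 69.6 to 102 CPM in A/J. Scgb3a2 was 12.04 to 15.6 CPM in B6 controls and 0.963 to 3.12 CPM in A/J controls, while Nkx2-1 was 185 to 204 and 153 to 183 CPM. Median CPM in B6 and A/J controls were 87.4 and 102 for Sox9, 382 and 417 for Etv5, and 107 and 110 for Id2. They were 53.2 and 53.8 for Bmp4, 54.0 and 50.9 for Foxa2, 20.8 and 18.9 for Sox2, and 2.50 and 0.963 for Foxj1. The part of these levels in the strain comparisons was not tested. Among the genes with 10% to 50% of their fragments counted without strand, 8.24% and 8.61% were called in controls, and among those with 90% or more, 14.3% and 14.1%. The differences between these classes were not tested. The 2 strand columns hold different fragments of the same libraries and are not replicates of each other.

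Rpgrip1 was higher in A/J by 0.59 ± 0.09 and 0.53 ± 0.07 on the log2 scale in controls (SE, 4 libraries against 4, edgeR adjusted p 2.96e-05 and 3.05e-06). With BMS493 the values were 0.49 ± 0.09 and 0.50 ± 0.07 (adjusted p 0.000381 and 7.11e-06). With both strand columns added it had 58.3, 56.7, 58.9 and 57.1 CPM in B6 controls and 78.2, 83.8, 86.6 and 91.4 CPM in A/J controls, and no A/J library overlapped with B6. The histone chaperone Supt16 on the other strand, counted without strand, differed likewise, by 0.53 ± 0.07 in controls (adjusted p 1.66e-06) and 0.39 ± 0.07 with BMS493 (adjusted p 0.000138). Rpgrip1 itself had only 2 to 13 fragments per control library without strand, and there its log2 difference was 0.19 ± 0.50 (adjusted p 0.846).

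Gm10260, a predicted gene with high similarity to Rps18, was almost confined to A/J. B6 controls held 15, 44, 13 and 18 fragments with both strand columns added and B6 libraries with BMS493 18, 27, 11 and 20. A/J controls held 1457, 1577, 1921 and 1302, and A/J libraries with BMS493 1967, 1542, 1626 and 1477. The log2 differences were 6.30 ± 0.17 and 5.80 ± 0.20 in controls and 6.24 ± 0.17 and 6.28 ± 0.21 with BMS493 (edgeR adjusted p from 2.09e-22 to 3.62e-18). All 16 libraries held 0 fragments without strand, and 96.4% of its exon bases lie under exons of the other strand, where M21 lists the noncoding gene Gm26619. Its B6 libraries alone would not have reached the minimum of 200 fragments, so it was chosen through A/J, had to differ, and its calls add nothing to these counts. A count of Gm10260 could not be told apart from that of Gm26619, and in 17 of 32 library values the count in one strand column equalled that of Gm26619 in the other. The part played by the shared windows with Rps18 was not tested.

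G430095P16Rik, inside Nfix, had 444, 481, 495 and 382 fragments in B6 controls and 342, 353, 320 and 221 in A/J controls. In CPM no A/J control overlapped with a B6 control, and the log2 differences were -0.62 ± 0.14 and -0.64 ± 0.14 (edgeR adjusted p 0.00289 and 0.00114). Nfix, counted without strand, was lower in A/J controls by -0.80 ± 0.09 (adjusted p 2.64e-07). With BMS493 the values of G430095P16Rik were -0.28 ± 0.14 and -0.35 ± 0.14 and were not called (adjusted p 0.202 and 0.0823), while Nfix was lower there too (-0.50 ± 0.09, adjusted p 0.000158).

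Acsm3, an acyl-CoA synthetase of mitochondria, had 22.3, 23.7, 23.3 and 24.1 CPM in B6 controls and 14.4, 16, 14.1 and 19 CPM in A/J controls, without overlap. The log2 differences were -0.50 ± 0.12 and -0.61 ± 0.13 (edgeR adjusted p 0.00530 and 0.00114). Its partner Eri2, an exonuclease, was also lower in A/J controls (-0.37 ± 0.10, adjusted p 0.0116). Acsm3 had 8 to 28 fragments per control library without strand, with a log2 difference of 0.08 ± 0.34 (adjusted p 0.913). With BMS493 it was called in the second strand column only (-0.43 ± 0.13, adjusted p 0.0198, against -0.29 ± 0.12 and 0.113 in the first).

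Samd11, a transcriptional regulator known from photoreceptors, was lower in A/J although its partner was not. The log2 differences were -0.34 ± 0.09 and -0.33 ± 0.10 in controls (edgeR adjusted p 0.0107 and 0.0259) and -0.47 ± 0.09 and -0.44 ± 0.10 with BMS493 (adjusted p 0.000425 and 0.00268). With both strand columns added, CPM were 31.0 to 37.0 in B6 controls against 24.6 to 30 in A/J controls, and 32.1 to 40.4 against 24.7 to 27.1 with BMS493. Noc2l, which meets Samd11 end to end over 598 bases, differed by 0.05 ± 0.09 and 0.08 ± 0.09 (adjusted p 0.752 and 0.593). The call of Samd11 in controls in the second column was lost without B6 control replicate 2 or 3 or A/J control replicate 1, 2 or 4 (adjusted p up to 0.118).

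Hoxb2 had 1492, 1464, 1611 and 1101 fragments in A/J controls and 1415, 1551, 1513 and 1349 in A/J with BMS493, beside the B6 values given above. With BMS493 it was higher in A/J by 0.37 ± 0.09 and 0.38 ± 0.09 (edgeR adjusted p 0.00637 and 0.00199), and in controls by 0.21 ± 0.09 and 0.23 ± 0.08, which was not called (adjusted p 0.139 and 0.0663). Without strand it was higher in A/J with BMS493 as well (0.82 ± 0.20, adjusted p 0.00477). The partner, the antisense gene Hoxb3os, differed by 0.95 ± 0.19 in controls, higher in A/J (adjusted p 0.000827), and by 0.48 ± 0.19 with BMS493, which was not called (adjusted p 0.0834).

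Gm10644, opposite the adhesion receptor gene Adgrl1, was higher in A/J with BMS493 by 0.32 ± 0.09 and 0.30 ± 0.08 (edgeR adjusted p 0.0126 and 0.0133). The 4 B6 libraries with BMS493 had 66.7, 58.9, 47.2 and 67.5 CPM with both strand columns added and the A/J libraries 73.8, 83.5, 69.0 and 72.3 CPM, without overlap. Adgrl1 was higher by 0.18 ± 0.06 (adjusted p 0.0426). The call of Gm10644 was lost in both columns without A/J BMS493 replicate 2, and with only the 8 libraries compared in the fit (adjusted p up to 0.0728).

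**Figure D5:**
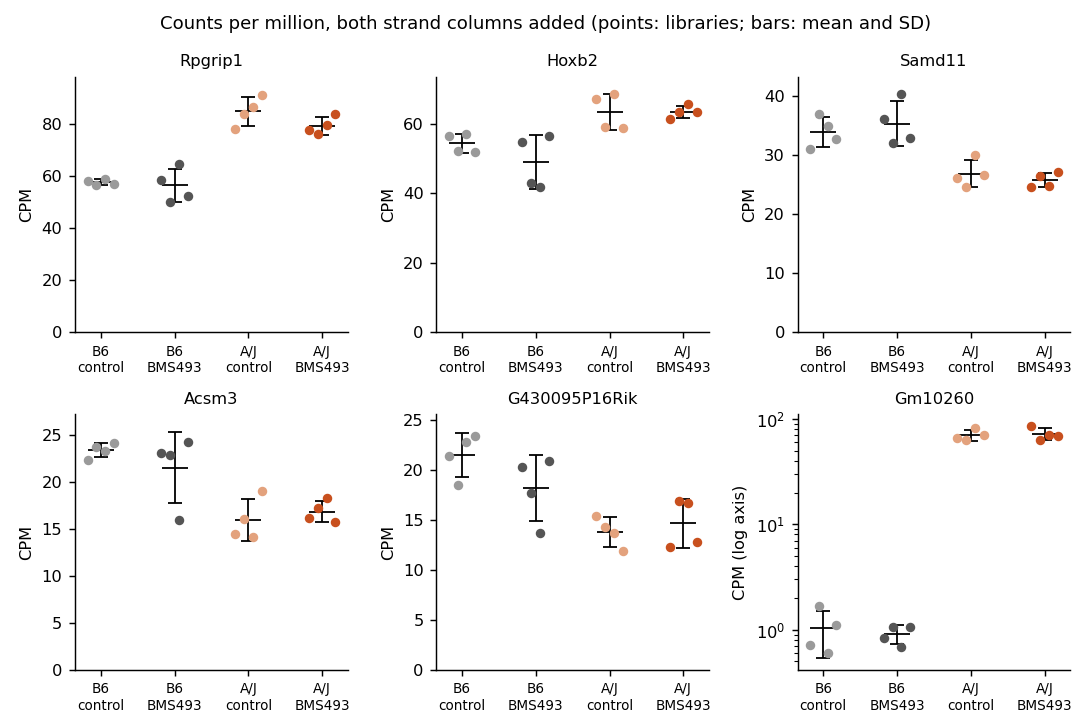
CPM with both strand columns added for 6 genes called in both strand columns in at least 1 strain comparison; points are libraries (4 per group) and bars the mean and SD. Rpgrip1 was 56.7 to 58.9 CPM in B6 controls and 78.2 to 91.4 in A/J controls; the panel of Gm10260 has a log axis, the others start at 0.

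In controls 6 further genes were called in 1 strand column only. Higher in A/J were Fam57b, opposite Aldoa (0.41 in the first and 0.47 in the second column, where it was called), Masp2 (0.36 and 0.34, called in the second) and the complement gene C2 (0.36 and 0.09, called in the first). In M21 Fam57b shares only 25 exon bases with Aldoa, 0.635% of its own. Lower in A/J, all called in the first column, were Ccdc152 (-0.42 and -0.50), 2200002D01Rik (-0.45 and -0.25) and Ttc16 (-0.52 and -0.26). The edgeR adjusted p of these calls lay between 0.00773 for 2200002D01Rik and 0.0484 for Ccdc152. Of 23 alternatives, the call of Ccdc152 was lost in 14 (adjusted p up to 0.147), Masp2 in 10, Fam57b in 6 (up to 0.101), Ttc16 in 4 (up to 0.0907), C2 in 3 (up to 0.186) and 2200002D01Rik in 0. With BMS493 7 genes were called in 1 column only. These were Acsm3, Ccdc152 (-0.66 in the first column), Pelo (0.42 in the second), Rangrf (0.33 in the second), Doc2a (0.29 in the first), the adaptor gene Sla2 (0.30 in the first) and the myosin gene Myo1h (-0.24 in the second). The edgeR adjusted p lay between 0.00139 for Ccdc152 and 0.0452 for Rangrf. The call of Rangrf was lost in 13 of 23 alternatives (adjusted p up to 0.189), Pelo in 12 (up to 0.141), Doc2a in 10 (up to 0.137), Myo1h in 8 (up to 0.183), Sla2 in 5 (up to 0.0937), Acsm3 in 5 (up to 0.0714) and Ccdc152 in 0. Without B6 BMS493 replicate 3 the calls of Rangrf, Doc2a, Myo1h and Sla2 were lost, and without that library the control call of Fam57b was lost too. C2, Sla2 and Myo1h were named after their values had been seen.

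For the genes called in both columns, the partner's own change without strand was set beside them. In controls 4 of the 5 partners could be tested, and Supt16, Nfix and Eri2 were called in the same direction as the hidden gene. With BMS493 4 of 5 could be tested, and Supt16 and Adgrl1 were called in the same direction. Of the genes called in 1 column, Aldoa (0.43 ± 0.13, adjusted p 0.0297, opposite Fam57b) and Selenop, the selenium carrier (-0.57 ± 0.11, adjusted p 0.000897, opposite Ccdc152), were called in controls, and Eri2 and Selenop with BMS493, in each case 2 of the 5 partners tested. The other 3 in controls, Tor2a, Tardbp and Yif1b, were not called (-0.08, 0.05 and -0.35), nor were Gm10734 (-0.16, opposite Pelo), Slc25a35 (-0.07, opposite Rangrf) and Ino80e (0.16, opposite Doc2a) with BMS493, and the values of Gm10734 and Slc25a35 had the opposite sign to those of Pelo and Rangrf. The partners of C2, Sla2 and Myo1h were not set beside them. The partner's counts without strand leave out the fragments over the overlap, while both values come from the same libraries.

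Counted without strand, 1 of the 63 tested genes was called between strains in controls, where 16.9% of all genes were called, and 4 with BMS493, where 20% were (5 without B6 BMS493 replicate 3). Masp2 was called in both. Its B6 controls held 5, 4, 1 and 4 fragments without strand and A/J controls 95, 101, 73 and 72. With BMS493 B6 held 5, 0, 0 and 3 and A/J 85, 98, 85 and 77, so that no A/J library came near any B6 library. The fitted log2 differences were 4.48 ± 0.38 and 5.17 ± 0.42. Masp2 passed the filter on low counts only through its A/J libraries, so that it had to differ, and its call adds nothing to these counts. In the strand columns, where fragments over Tardbp are included, Masp2 differed by 0.36 and 0.34 in controls (adjusted p 0.0835 and 0.0411), and the call in the second column was lost in 10 of 23 alternatives. Tardbp differed by 0.05 ± 0.07 (adjusted p 0.705).

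The other genes called without strand with BMS493 were Hoxb2, given above, Acat3 and B3gat2, a glucuronyltransferase gene opposite Smap1. Acat3 was higher in A/J by 1.92 ± 0.53 (edgeR adjusted p 0.0116), with the counts and the limit given above. B3gat2 was higher by 0.80 ± 0.24 (adjusted p 0.0166), with 23, 27, 18 and 17 fragments in B6 and 31, 52, 46 and 39 in A/J. In the strand columns B3gat2 did not differ by the test (adjusted p 0.753 and 0.988), and without strand its call was lost without A/J BMS493 replicate 2, with only the 8 libraries compared and with no filter (adjusted p up to 0.0723).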

How the data were processed

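The deposited files hold raw counts of fragments per gene, 1 file per library, with 3 columns (without strand and for each strand) over 57180 genes and 4 lines that are not genes. Per the submitters' processing notes the reads went through FastQC, cutadapt and STAR on GRCm39; versions and annotation are not given in the sources used here. Symbols, gene types and overlaps came from GENCODE M21 (GRCm38), so positions of counted exons are approximate.

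Each strand column was fitted separately with the robust quasi-likelihood model of edgeR 4.0.16 in R 4.3.3 (TMM, filterByExpr, 1 coefficient per group, 16 libraries, 12 residual degrees of freedom). Fold changes are log2 with SE, and p-values were adjusted over all genes tested in a column. CPM used TMM scaling, except for the marker genes of cell types and organs. CPM of those markers used the plain library total of both strand columns over all genes. Tables were assembled with Python 3.11.15 and pandas 2.3.3. The fits were tested on simulated data. Replicates differed by more than sampling noise (chi-square per degree of freedom 3.51 to 30.7 over 24 pairs), so no library was counted as a repeat of another. A total of 3 counts or fewer says little, and counts without molecular identifiers are not independent molecules.

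Alternatives were RLE scaling, DESeq2 1.42.0, no filter, only the 8 libraries compared, and a replicate block. Others were a term that split libraries by whether their number was above 8, and both strand columns added. Each library was also left out in turn, and other limits of the rule were tried. Tests without strand were added later. Named were the 15 genes with the most fragments, those called in both strand columns, up to 5 per comparison called in 1, those at the limits of the rule, and the partners of these; others are said to be chosen after their values were seen. The genes and lists were chosen with earlier results of these data known.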

Additional observations from a re-analysis of the deposited data

Results flagged for a closer look

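In groups of 4 libraries, a library was picked out when its gap to the nearest other, as a share of the range of the group, exceeded Dixon's critical value at 95%. This was done for the named genes in CPM with both strand columns added. Of 136 groups 11 were picked out, and chance alone picks about 1 in 20. The most distant was Gadl1 in A/J control replicate 3 (ratio 0.983), with 61.1 CPM against 12.9 to 13.7 in the other 3 A/J controls. In the same library its partner Gm9385, a processed pseudogene, held 697 and 916 fragments in the strand columns and 185 without strand, against 68 to 102 without strand in the other A/J controls.

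B6 BMS493 replicate 3 was picked out in 4 genes: Shc4 (0.862, 112 CPM against 61.6 to 68.5), Sla2 (0.855, 36.3 against 48.7 to 50.7), Masp2 (0.901, 26.9 against 32.5 to 33.1) and Acsm3 (0.836, 15.9 against 22.8 to 24.2). The others were Gpx1 in A/J control replicate 3 (0.895, 130 CPM against 114 to 115) and in A/J BMS493 replicate 2 (0.914, 121 against 115 to 116), Fen1 in B6 control replicate 4 (0.899, 90.8 against 100 to 101), Pelo in A/J control replicate 4 (0.856, 11.7 against 15.7 to 16.4), and Sla2 in B6 control replicate 1 (0.863, 47.7 against 52.0 to 52.7) and A/J control replicate 4 (0.848, 59.6 against 50.9 to 52.2).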

How the results depend on the processing

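For BMS493 and for the difference between strains, 0 of the 119 genes were called in either strand column under every alternative run. Between strains the counts of called genes depended on single libraries. In controls they ran from 7 to 11 in the first strand column and from 4 to 8 in the second when 1 library was left out, with 4 without B6 control replicate 3. With BMS493 they ran from 6 to 13 in the first, with 13 without B6 BMS493 replicate 3, and from 5 to 12 in the second, with 5 without A/J BMS493 replicate 1, and from only the 8 libraries compared 4 were called there. Without strand, leaving out 1 library gave 0 to 1 calls for BMS493 in B6, 0 to 1 in A/J, 1 to 2 between strains in controls and 3 to 7 with BMS493. For BMS493 in B6 no filter gave 2 calls and only the 8 libraries compared 0. Between strains in controls DESeq2, no filter, the replicate block and only the 8 libraries compared each gave 2, and with BMS493 only the 8 libraries compared gave 2. A minimum mean of 500 fragments left 59 genes in place of 119, one of 100 gave 145, and a limit of 5% or 20% in place of 10% gave 94 or 169. No call of the 21 genes called in any comparison turned its direction. Where these values moved, the cause was not tested.

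The replicate numbers did not clearly pair the libraries. Deviations from the group means correlated between -0.147 and 0.160 over 24 same-numbered pairs (median -0.012), 3 of them over 0.1. Over 72 other-numbered pairs they ran from -0.141 to 0.180 (median 0.004), with 1 over 0.1. Of 16 libraries, 6 correlated best with a library of their own number. With the replicate block, 11 and 7 genes were called between strains in controls, 9 and 8 with BMS493, and 0 for BMS493. Fragments over an overlap cannot be assigned to one of its genes in unstranded libraries, and counts without strand were enough for a test in 63 of the 119 genes.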

Other observations

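The same limits held for 474 genes that are noncoding or not matched in M21, of which 306 are annotated as antisense genes and 40 were not matched. For 11 of the 119 coding genes the partner was noncoding, and several such pairs had nearly equal totals: Fen1 and Gm10143 had means of 2176 and 2176 fragments with both strand columns added, Gm10260 and Gm26619 of 815 and 815, and Pelo and Gm10734 of 319 and 317.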
